A study of Saccharomyces cerevisiae with 3 samples.

Results

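The pyrimidine genes of the budding yeast Saccharomyces cerevisiae described here serve the route from simple precursors to uridine nucleotides, the step on to CTP, and uracil salvage. They were chosen by name, with earlier results of these data known. The choice was 10 genes, URA1 to URA8, URA10 and FUR1, of the 5203 genes that the array's annotation names. Of these 10, 8 were matched by symbol to 1 named spot each, and 7 had a value on all 3 arrays. URA2 and URA3 were matched to no named spot and were not analysed here, and URA1 had a value on arrays 2 and 3.

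The study compared cultures of strain S288C in rich glucose medium at 25 °C. Treated cultures were exposed to 5 mM 2-aminobenzimidazole, the parent amine of the benzimidazole fungicides, for 2 h. Control cultures grew for the same time without it. The compound came from a 500 mM stock, and an effect of the stock solvent was not tested. Each of 3 two-colour arrays set treated messenger RNA, labelled with Cy5, against control messenger RNA, labelled with Cy3, and the series states that the samples were biologically independent. The dye orientation was the same throughout (0 arrays exchanged), so treatment and dye cannot be told apart for any gene. Each value is a log ratio, taken here as log2 although the table does not name the base, and read as treated over control. As natural logs the fold changes would be larger (12.7-fold in place of 5.81-fold for URA7), with the same results in tests against 0. The direction is likely, because the labels name the treated RNA as channel 1 and a ratio is usually written test over reference, but it is not written in the table. Were it the other way round, every rise below would be a fall. A ratio from a whole culture does not separate fewer cells holding a transcript from less of it per cell.

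In yeast, UMP is made by condensing carbamoyl phosphate with aspartate, closing and oxidising the ring to orotate, joining orotate to phosphoribosyl pyrophosphate (PRPP), and removing a carboxyl group. UMP is then phosphorylated to UDP and UTP, and UTP is aminated to CTP. Both the joining of orotate to PRPP (URA5 and URA10) and the making of CTP (URA7 and URA8) have a pair of isoenzyme genes, of which URA5 and URA7 are known as the major forms. Cells can also use uracil, uridine and cytosine from outside, which are brought to UMP by salvage enzymes such as the uracil phosphoribosyltransferase FUR1. The transcription factor Ppr1 is known to activate URA1, URA3, URA4 and URA10 when pyrimidines are short.

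After exposure, URA7, URA5 and FUR1 were lower and URA10 was higher, while URA6, URA8 and URA4 did not pass the test. The fall was 5.81-fold for URA7, 3.06-fold for URA5 and 2.65-fold for FUR1, and the rise of URA10 was 4.44-fold. Thus 3 of the 7 tested genes were lower and 1 was higher in limma, with p-values adjusted by the Benjamini-Hochberg method over the 3039 genes measured on all arrays and a threshold of 0.05. Over all tested genes, 9.64% were lower and 8.36% were higher by the same rule, 18% in all. The median of the 7 means was -0.65, and that of all tested genes was -0.04. On each array the 7 genes stood in the same order, from URA7 through URA5, FUR1, URA4, URA6 and URA8 to URA10.

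**Figure D1:**
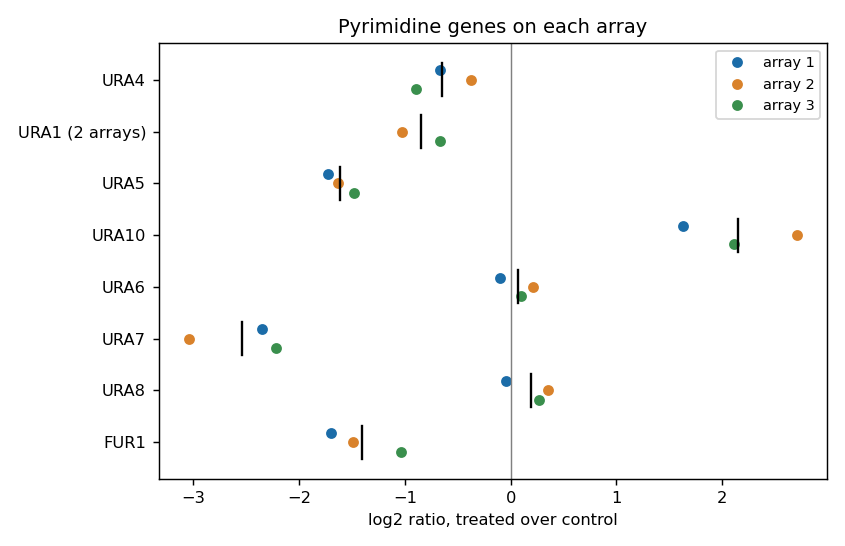
Log2 ratio of treated over control (horizontal axis) for the 8 pyrimidine genes with a named spot, with 1 point per array and a vertical bar at the mean. All 3 points of URA7, URA5 and FUR1 lie below -1, those of URA10 lie above 1.6, and those of URA6 and URA8 lie on both sides of 0.

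Every call among the 3039 genes, here and below, needed arrays 1 and 3. With either left out, 0 of them passed in limma, and 635 genes (array 1 left out) and 715 genes (array 3 left out) had an unadjusted p below 0.05. The means of the called genes kept their sign in the 3 fits that leave out 1 array, and ranged from -2.70 to -2.29 for URA7, from -1.68 to -1.56 for URA5, from -1.59 to -1.26 for FUR1 and from 1.87 to 2.41 for URA10. Without array 2, which correlated less with the others across genes (Pearson r of 0.52 with array 1 and 0.468 with array 3, against 0.748 between arrays 1 and 3), all 4 calls were made, beside 12% of genes lower and 12.3% higher.

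The early steps of the route were represented by URA4 and URA1. URA4 (YLR420W), dihydroorotase, which closes the ring, had log2 ratios of -0.67, -0.38 and -0.89 on arrays 1, 2 and 3. The 3 values were all below 0, with a mean of -0.65 ± 0.26 (SD, n = 3), and the gene did not pass (adjusted p = 0.132, limma; unadjusted p = 0.0461). The 95% confidence interval of its mean ran from -1.28 to -0.01. URA1 (YKL216W), the dihydroorotate dehydrogenase that makes orotate, had -1.02 on array 2 and -0.67 on array 3. Its mean of -0.85 is from 2 arrays, and in the fit of the 5043 genes measured on 2 or more arrays, of which 5.83% were lower, it did not pass (adjusted p = 0.16, limma). The ranges of URA1 and URA4 overlapped, and each was the lower of the pair on 1 of the 2 arrays that measured both.

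The isoenzyme genes of the next step, orotate phosphoribosyltransferase, moved in opposite directions. URA5 (YML106W), the major form, had log2 ratios of -1.73, -1.63 and -1.48 on arrays 1, 2 and 3. These values were close together: the mean was -1.61 ± 0.12 (SD, n = 3; adjusted p = 0.0144, limma), and 5.33% of tested genes had a smaller SD. URA10 (YMR271C), the minor form, had 1.63, 2.71 and 2.12. Its mean was 2.15 ± 0.54 (SD, n = 3; adjusted p = 0.0121, limma), and its spread was above the median SD of 0.47 over all tested genes. The 3 values of URA10 lay above all 3 of URA5 and on the other side of 0.

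Within each array, the log2 ratio of URA5 was below that of URA10 by a difference of -3.35 on array 1, -4.34 on array 2 and -3.60 on array 3. The mean difference was -3.77 ± 0.52 (SD, n = 3), so that the ratio of URA10 to URA5 shifted 13.6-fold between treated and control cultures. By array the shift was 10.2-fold, 20.3-fold and 12.1-fold, with array 2 the furthest out. The exact two-sided sign-flip permutation test gave p = 0.25, the smallest that 3 arrays can give, and 0.25 after adjustment over the 2 isoenzyme pairs. These differences compare changes and say nothing of which transcript was more abundant.

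**Figure D2:**
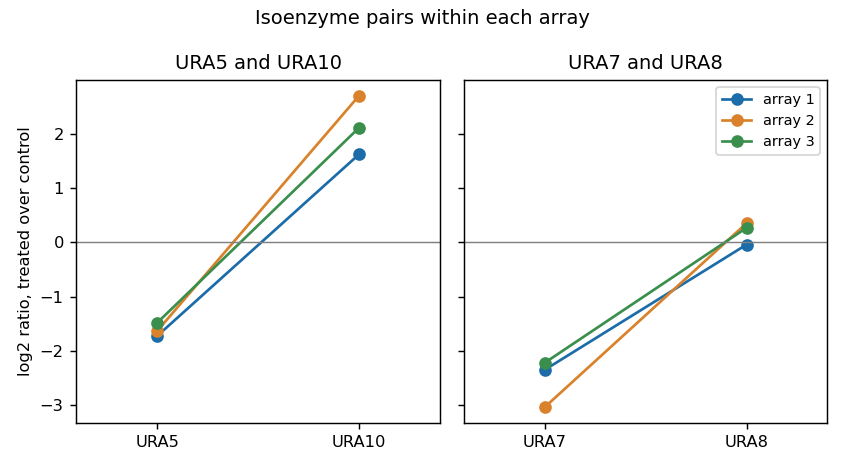
Log2 ratio of treated over control (vertical axis) for the isoenzyme genes URA5 and URA10 (left) and URA7 and URA8 (right), with a line joining the values of the same array. All 3 lines of both pairs run upward, from means of -1.61 to 2.15 on the left and from -2.54 to 0.20 on the right.

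Of the genes that carry orotidine monophosphate on to the diphosphate, URA6 was measured. URA6 (YKL024C), UMP kinase, had log2 ratios of -0.10, 0.21 and 0.10 on arrays 1, 2 and 3. The values lay on both sides of 0 with a mean of 0.07 ± 0.16 (SD, n = 3; adjusted p = 0.875, limma), and the mean was -0.00062 without array 2. Its 95% confidence interval, from -0.55 to 0.68, holds changes of either sign.

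CTP synthase is the last step, and its isoenzyme genes differed in their change. URA7 (YBL039C), the major form, had log2 ratios of -2.35, -3.04 and -2.22 on arrays 1, 2 and 3. All 3 were far below 0, lowest on array 2, with a mean of -2.54 ± 0.44 (SD, n = 3; adjusted p = 0.0085, limma). By its mean, URA7 was number 2 from the lowest of the 3039 tested genes, or number 2 from the highest were the ratio the other way round. Among all named genes with a value on the array, 0.718% were lower than URA7 on array 1, 0.0595% on array 2 and 0.601% on array 3. URA8 (YJR103W), the minor form, had -0.04, 0.36 and 0.27, values near 0 that did not overlap with those of URA7. Its mean was 0.20 ± 0.21 (SD, n = 3; adjusted p = 0.639, limma), with a 95% confidence interval from -0.43 to 0.82.

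The within-array difference of URA7 and URA8 was -2.31, -3.40 and -2.49 on arrays 1, 2 and 3, with a mean of -2.73 ± 0.58 (SD, n = 3). This is a 6.65-fold shift of URA8 relative to URA7, and again array 2 was furthest out, at 10.5-fold, against 4.97-fold on array 1 and 5.63-fold on array 3. The exact two-sided sign-flip permutation test again gave its smallest value, p = 0.25, and 0.25 after adjustment over the 2 pairs. In both pairs the major form was lower on all 3 arrays, whereas the minor form was higher in the case of URA10 and near 0 in the case of URA8. How far a spot of one isoenzyme gene also takes up the transcript of the other was not tested, and the sequences of the spots were not used here.

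FUR1 (YHR128W), which turns uracil and PRPP into UMP, had log2 ratios of -1.70, -1.49 and -1.03 on arrays 1, 2 and 3. It was below 0 on all 3, with a mean of -1.40 ± 0.34 (SD, n = 3; adjusted p = 0.0212, limma). The values of FUR1 overlapped with those of URA5, whose enzyme also consumes PRPP, although URA5 was the lower of both genes on each array.

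In the order of the 8 measured genes by mean, neighbouring genes overlapped in their values for URA5 and FUR1, for URA1 and URA4, and for URA6 and URA8. The ranges did not overlap between URA7 and URA5, between FUR1 and URA1, between URA4 and URA6, or between URA8 and URA10. The gap between FUR1 and URA1 was narrow, from a highest value of -1.03 to a lowest of -1.02, and URA1 had no value on array 1. The widest step, 1.96 on the log2 scale, lay between URA8 and URA10. Of the 7 tested genes, URA7, URA5 and FUR1 were at least 2-fold lower on every array, as were 3.75% of all tested genes. URA10 was at least 2-fold higher on every array, as were 3.78% of all tested genes.

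**Figure D3:**
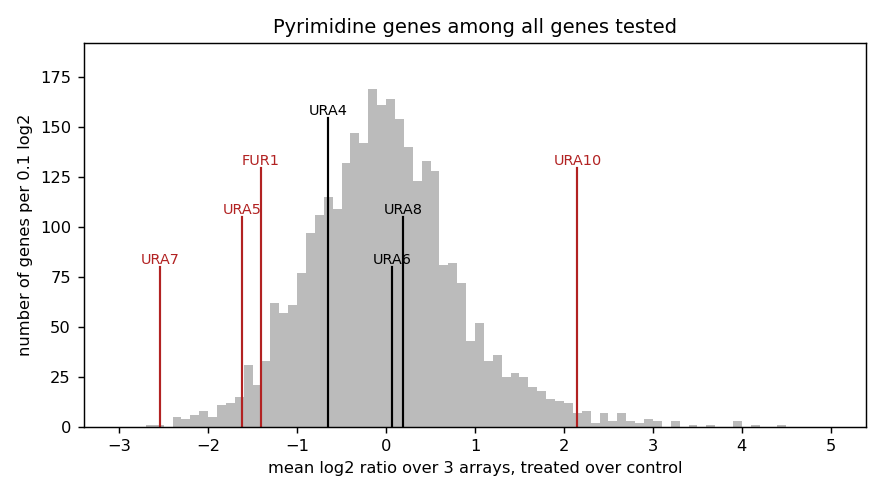
Number of genes (vertical axis) by mean log2 ratio over 3 arrays (horizontal axis) for the 3039 tested genes in grey, with the 7 tested pyrimidine genes as vertical lines, in red where they passed the test. URA7 at -2.54 lies at the lower end of the distribution, URA10 at 2.15 in the upper tail, and URA6 and URA8 near the middle. The heights of the lines carry no value.

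Of the known targets of Ppr1, URA10 rose, URA4 had a mean of -0.65 without passing, URA1 had a mean of -0.85 over 2 arrays, and URA3 was not analysed here. No test was made of these genes as a group. PPR1 (YLR014C) itself had log2 ratios of -0.42, -0.51 and -0.37 on arrays 1, 2 and 3. These were all slightly below 0, with a mean of -0.43 ± 0.07 (SD, n = 3; adjusted p = 0.273, limma).

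A list of 29 further genes around the pathway, chosen with earlier results of these data known, had 27 genes with a named spot and 21 with a value on all arrays. Of these 21, 4 were lower and 1 was higher, which is 19% and 4.76%, beside 9.64% and 8.36% of all tested genes. The median of the 21 means was -0.25.

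All 5 genes for PRPP synthetase subunits, which make the substrate of URA5, URA10 and FUR1, had means below 0, with a median of -0.72, and 2 of them were lower. Of all 3039 tested genes, 1588 had a mean below 0 and 9.64% were lower. PRS1 (YKL181W) had log2 ratios of -1.20, -0.85 and -1.03 on arrays 1, 2 and 3, and fell to a mean of -1.03 ± 0.18 (SD, n = 3; adjusted p = 0.0382, limma). PRS3 (YHL011C) had -1.28, -1.04 and -0.78, and also fell to -1.03 (SD 0.25, n = 3; adjusted p = 0.0401, limma). PRS5 at -0.72 ± 0.54, PRS4 at -0.66 ± 0.33 and PRS2 at -0.14 ± 0.27 did not pass. PRS2 was above 0 on array 1, and the other 4 genes were below 0 on every array.

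Of the 9 tested genes for uptake, salvage and regulation, 1 was lower and 0 were higher, beside 9.64% and 8.36% of all tested genes, so this count does not stand out from the background. URK1 (YNR012W), uridine and cytidine kinase, had log2 ratios of -0.91, -1.52 and -0.65 on arrays 1, 2 and 3, with a mean of -1.03 ± 0.45 (SD, n = 3; adjusted p = 0.0493, limma). This call lay at the threshold and was lost with centred arrays (adjusted p = 0.0574) or without array 2 (adjusted p = 0.0965). The permease genes differed between arrays. FUR4 (YBR021W), the uracil permease gene, had -0.59, -1.43 and 0.38, and FUI1 (YBL042C), the uridine permease gene, had -0.10, -1.55 and 0.90, so both were lowest on array 2 and above 0 on array 3. FCY2 (YER056C), the purine and cytosine permease gene, had 1.04, -0.21 and 1.34, and its homologue FCY21 had -0.28 on array 2 and 1.61 on array 3. FCY2 did not pass with all arrays (adjusted p = 0.191, limma) and passed without array 2 (mean 1.19, adjusted p = 0.026).

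Enzymes that take uridine and cytosine compounds apart showed a mixture of values. SDT1 (YGL224C), a pyrimidine nucleotidase gene, had 1.21, 0.17 and 0.91 on arrays 1, 2 and 3, all above 0 (adjusted p = 0.12, limma; 0.0384 without array 2). PHM8 (YER037W), a nucleotidase gene related to it, was measured on arrays 2 and 3 at 2.48 and 1.63. In the fit of genes on at least 2 arrays its mean of 2.06 passed (adjusted p = 0.0212, limma), where 5.39% of genes were higher. The uridine nucleosidase gene URH1 at -0.30 ± 0.39, the cytosine deaminase gene FCY1 at -0.28 ± 0.30 and the cytidine deaminase gene CDD1 at 0.05 ± 0.44 did not pass.

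**Figure D4:**
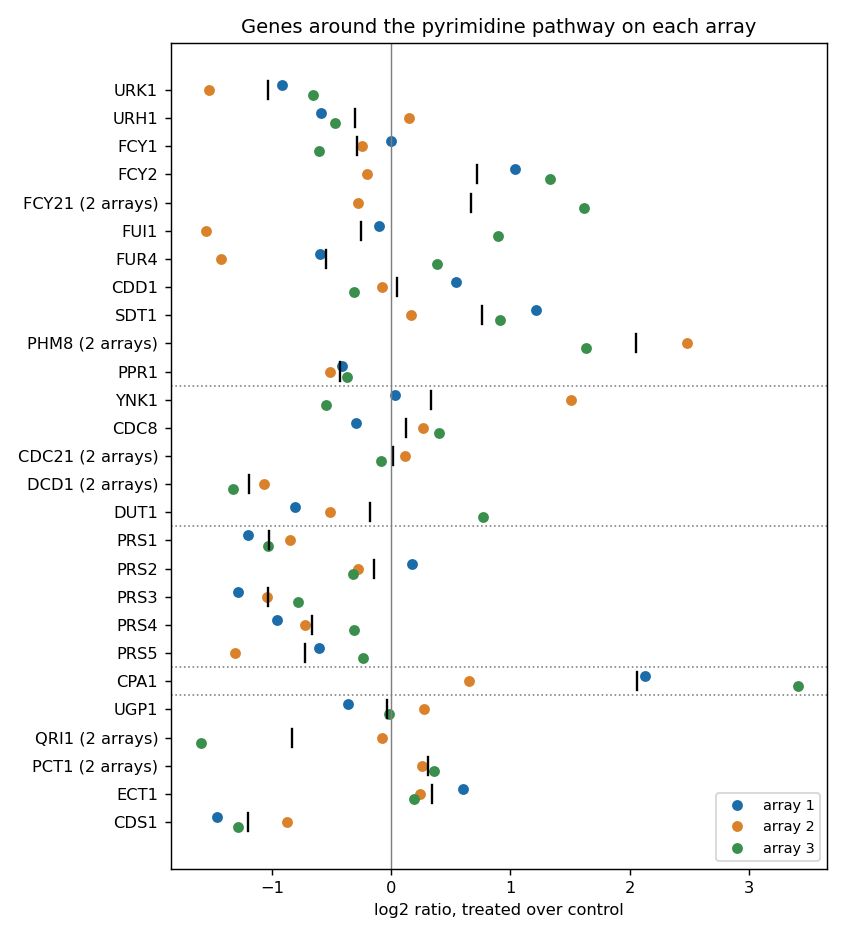
Log2 ratio of treated over control (horizontal axis) for the 27 further genes with a named spot, with 1 point per array and a vertical bar at the mean. Dotted lines separate, from the top, uptake, salvage and regulation, nucleotide kinase and deoxypyrimidine genes, PRPP synthetases, arginine carbamoyl phosphate synthetase, and users of UTP or CTP. All 5 PRPP synthetase bars lie below 0, and CPA1, with the rightmost bar, spans 0.66 to 3.41.

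Genes that lead from the pyrimidine ribonucleotides to DNA precursors gave 0 calls among the 3 tested (limma, also 0 at an unadjusted p below 0.05). With 18% of all tested genes called, 0 of 3 shows little either way. The thymidylate kinase gene CDC8 stood at 0.13 ± 0.37, the dUTPase gene DUT1 at -0.18 ± 0.84, and YNK1, the nucleoside diphosphate kinase that makes UTP from UDP, at 0.33 ± 1.06. YNK1 had 1.51 on array 2 against 0.03 and -0.55 on arrays 1 and 3. DCD1 (YHR144C), the dCMP deaminase gene, was measured on arrays 2 and 3 at -1.06 and -1.33 (adjusted p = 0.0702 in the fit of genes on at least 2 arrays, limma), and CDC21, the thymidylate synthase gene, at 0.12 and -0.09.

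Carbamoyl phosphate is also made for arginine by a separate synthetase, whose small subunit gene CPA1 (YOR303W) rose. Its log2 ratios were 2.13, 0.66 and 3.41 on arrays 1, 2 and 3, all above 0 but widely spread, with a mean of 2.06 ± 1.38 (SD, n = 3; adjusted p = 0.0316, limma). Its mean was 1.39 without array 3 and 2.77 without array 2. The 2 spots of this gene carried identical values. Among the 5 users of UTP or CTP, 3 were tested and 1 was lower, beside 9.64% of all tested genes. So small a list shows little either way. CDS1 (YBR029C), which joins CTP to phosphatidic acid in phospholipid synthesis, had -1.46, -0.87 and -1.28, below 0 on every array, and fell to -1.20 ± 0.30 (SD, n = 3; adjusted p = 0.0281, limma). UGP1, which makes UDP-glucose from UTP, stood at -0.03 ± 0.32, and ECT1, which joins CTP to phosphoethanolamine, at 0.35 ± 0.22. PCT1, which does the same with phosphocholine, had 0.26 and 0.36 on arrays 2 and 3, and QRI1, which makes UDP-N-acetylglucosamine, had -0.07 and -1.60.

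The genes with the most similar log2 ratios were found by the root mean square difference over the 3 arrays among all tested genes. For URA5 they were SCP160, an RNA-binding protein gene, at a root mean square difference of 0.089, AUR1, for inositolphosphorylceramide synthase, at 0.101, and GDH1, for glutamate dehydrogenase, at 0.104. For URA7 they were NOP1, for the nucleolar protein fibrillarin, at 0.31, RPA49, for a subunit of RNA polymerase I, at 0.393, and ELO3, for a fatty acid elongase, at 0.419. For URA10 they were FMP23 at 0.204, YRO2 at 0.263 and HSP31 at 0.289. A like profile over the arrays follows from choosing genes in this way.

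The 16 protein-coding genes that directly flank the 8 measured genes were taken from the RefSeq gene table. Of these, 14 had a value on at least 1 array and 7 were tested, with means from -0.37 to 0.76. Among the 7, 0 passed in limma and 1 had an unadjusted p below 0.05, and with 18% of all tested genes called, so few genes show little either way. SCS7, beside URA10, stood at -0.16 (adjusted p = 0.713, limma), PML39, beside URA5, at -0.10 (adjusted p = 0.809), and MRPL16, beside URA7, at 0.35 (adjusted p = 0.464). Neighbours measured on arrays 2 and 3 alone, and so not tested, included some with values further from 0. These were RRN9 beside URA10 at -0.70 and -1.57, SEC65 beside URA5 at -0.35 and -2.07, and JEN1 beside URA1 at 1.21 and 2.49. These 6 neighbours were chosen after their values were seen.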

How the data were processed

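The authors deposited log ratios, taken here as log2, for 6272 spots on 3 arrays, which, per the labels, had been LOWESS-normalised from spots carrying the flag 0. Not given in the sources used here are scanner, background correction and log base. The highest value is a ratio of 7830000 in base 10, 119 in base 2 and 986 as a natural log. Base 2 was taken as customary. Read as natural logs, the fall of URA7 would be 12.7-fold and the rise of URA10 8.60-fold. Tests against 0 would give the same results. The test against a 1.5-fold change and the counts of genes at least 2-fold lower or higher depend on the base.

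Spots were named through the platform annotation and Entrez identifiers in the RefSeq table (5308 spots, 5203 genes), and spots of a gene were averaged. Arrays 1, 2 and 3 gave values for 3062, 5044 and 5158 genes, and without intensities the number of arrays limits the precision. The log2 ratios of the 3039 genes on all arrays were set against 0 in limma 3.58.1 under R 4.3.3. Settings were intercept only, eBayes, two-sided, Benjamini-Hochberg and a threshold of 0.05. The procedure was checked on simulated data with noise drawn independently for each gene and array. Effects shared by the genes of an array were not part of that check. The members and lists were chosen with earlier results of these data known. All members are named, list genes are given by counts and values, and the 3 most similar genes are named for URA5, URA7 and URA10. Alternatives were centring, scaling, variance and weight settings, genes on at least 2 arrays, a threshold of 0.01, a 1.5-fold null and leaving out each array.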

Additional observations from a re-analysis of the deposited data

How the results depend on the processing

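Centred arrays, scaled arrays, a robust variance, array weights and genes on at least 2 arrays kept the count of 3 lower and 1 higher pyrimidine genes. The background differed between these settings. Over all 3039 genes, the main fit called 254 higher and 293 lower, and array weights called 372 and 429. Centring, scaling and a robust variance called 250 to 265 higher and 251 to 292 lower. Of the 5043 genes on at least 2 arrays, 272 were higher and 294 lower. With an unmoderated variance 0 genes passed in either direction, with 261 higher and 374 lower over all genes at an unadjusted p below 0.05. At an adjusted p below 0.01, 23 genes were higher and 13 lower over all genes, with 0 pyrimidine genes higher and 1 lower, and 0 of the further genes in either direction. Against a 1.5-fold change 29 genes were higher and 16 lower, with 1 pyrimidine gene higher and 1 lower, and 0 further genes. The further genes gave 2 higher calls with array weights or with genes on at least 2 arrays. Leaving out each array in turn gave 0 to 373 higher and 0 to 366 lower genes over all, 0 to 1 higher and 0 to 3 lower pyrimidine genes, and 0 to 3 higher and 0 to 3 lower further genes. The mean difference of URA5 and URA10 ran from -3.97 to -3.48 and that of URA7 and URA8 from -2.94 to -2.40 in these fits. Signs turned only for genes that did not pass. Over the fits that leave out 1 array, the mean ran from -0.00062 to 0.16 for URA6, from -0.83 to 0.40 for FUI1, from -0.20 to 0.23 for CDD1, from -0.26 to 0.77 for YNK1, from -0.014 to 0.34 for CDC8, from -0.66 to 0.13 for DUT1 and from -0.19 to 0.13 for UGP1. With centred arrays UGP1 stood at 0.0091, and with scaled arrays at 0.021. The cause was not tested. No pairing of arrays between groups was possible because the arrays form 1 group and each ratio already holds its own control.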
